A study of Mus musculus with 24 samples.

Results

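The TAM receptors are the receptor tyrosine kinases *Tyro3*, *Axl* and *Mertk*, and their bridging ligands are *Gas6* (growth arrest-specific 6) and *Pros1* (protein S). These 5 genes were taken by symbol from a table of 24454 Entrez gene identifiers counted in mouse organ of Corti (OC) explants, the strip of cochlea that carries the sensory hair cells and their supporting cells. The set was chosen with earlier results of these data known, and it was selected on the log2 fold change of *Axl* between pioglitazone alone and control at 6 h, so the values of that comparison are given as a description and were not tested here.

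The ligands hold phosphatidylserine on the surface of dying cells on one side and a TAM receptor on the other. Engaged receptors let phagocytes engulf the dying cell, which is called efferocytosis, and they restrain interferon and toll-like receptor signalling. Mertk is best known from macrophages and from the retinal pigment epithelium, Axl from fibroblasts, vessels and cells exposed to interferon, and Tyro3 from the nervous system. Gas6 can engage each of the receptors, whereas protein S acts mainly through Tyro3 and Mertk. Both ligands must be carboxylated by a vitamin K-dependent enzyme before they bind phosphatidylserine.

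Explants came from 5-day-old C57BL/6N mice of both sexes and spent 24 h in serum-containing medium before treatment. They then received gentamicin at 50 µM (GM), an antibiotic of the aminoglycoside class known to kill hair cells, pioglitazone at 10 µM (PIO), which activates the nuclear receptor PPAR-gamma, both drugs (PIO+GM), or medium without drugs (CTRL), for 6 or 24 h. Each of the 8 groups had 3 libraries, and each condition used 6 OCs per replicate. The labels do not say that replicates came from separate litters or days, so p-values measure the spread between these libraries. The whole explant was sequenced, and fewer cells of a type and less RNA per cell cannot be told apart.

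Total counts per library ran from 7211357 to 15548856 with a median of 12538495, and all 5 genes passed the filter on low counts that left 16317 genes. The weakest member value, 44 counts of *Gas6*, lay above the 3 counts used as a detection floor. Hair cell markers (*Myo7a*, *Myo6*, *Pou4f3*) and supporting cell markers (*Sox2*, *Prox1*, *Gjb2*) were detected in all 24 libraries. Markers of macrophages, Schwann cells, fibroblasts, endothelial cells and neurons were detected too, and none of the 7 marker lists had a gene at 0 throughout any group. The explants therefore held several cell types in which TAM genes can be expressed.

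The promoters of *Axl* and *Pros1* are shown because these were the members whose libraries with and without pioglitazone did not overlap at 24 h. The sequences are the 250 bases before the RefSeq start on GRCm38.p6, written 5′ to 3′ on the strand of the gene. Capitals mark the letters GGAATG, the core read by TEAD factors, and GGGCGG, the core read by Sp1, on either strand. *Axl* lies on the minus strand at chr7:25788734-25788983 and *Pros1* on the plus strand at chr16:62854057-62854306.
Axl: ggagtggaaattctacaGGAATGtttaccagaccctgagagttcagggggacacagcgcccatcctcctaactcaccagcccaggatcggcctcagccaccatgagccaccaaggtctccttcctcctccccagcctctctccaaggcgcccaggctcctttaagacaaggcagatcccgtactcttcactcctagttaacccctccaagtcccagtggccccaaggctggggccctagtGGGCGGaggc
Pros1: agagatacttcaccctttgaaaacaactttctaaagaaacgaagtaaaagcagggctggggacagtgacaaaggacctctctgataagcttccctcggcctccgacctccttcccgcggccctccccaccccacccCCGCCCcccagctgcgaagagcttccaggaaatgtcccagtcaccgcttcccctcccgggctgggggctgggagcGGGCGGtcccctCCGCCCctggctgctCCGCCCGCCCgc

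Motifs were searched on both strands from 250 bases before to 50 bases after the start, in 32851 promoters that included those of all 5 members. The TEAD core GGAATG was present in the *Axl* promoter, 233 bases before the start, and in none of the other members, against 14.66% of all promoters. The Sp1 core was present in 5 of 5 members and in 35.66% of all promoters. No member promoter held the nuclear receptor core AGGTCA, which 16.26% of promoters held, or the AP-1 letters TGANTCA, which 7.808% held. Direct repeats of that core spaced by 1 base (AGGTCANAGGTCA) or by 4 bases (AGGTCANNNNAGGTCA), the arrangements read by PPAR and LXR dimers with RXR, were present in 0.03957% and 0.01522% of promoters and in no member. A match is a run of letters and not a bound site.

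On the length-scaled level (RPKM, counts scaled by library size and by the gene length given with the counts), *Axl* and *Pros1* were the most abundant members in untreated explants. In CTRL at 6 h *Axl* had 33.5 ± 3.44 RPKM (SD, n = 3) and *Pros1* 33.8 ± 10.6. *Mertk* had 11.5 ± 0.785, *Tyro3* 9.41 ± 2.38 and *Gas6* 6.23 ± 2.30. By 24 h in CTRL the level of *Axl* was 27.6 ± 1.34 and that of *Pros1* 23.5 ± 1.74, while *Tyro3* was at 17.1 ± 2.43, *Mertk* at 13.0 ± 2.07 and *Gas6* at 6.42 ± 4.09.

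**Figure D1:**
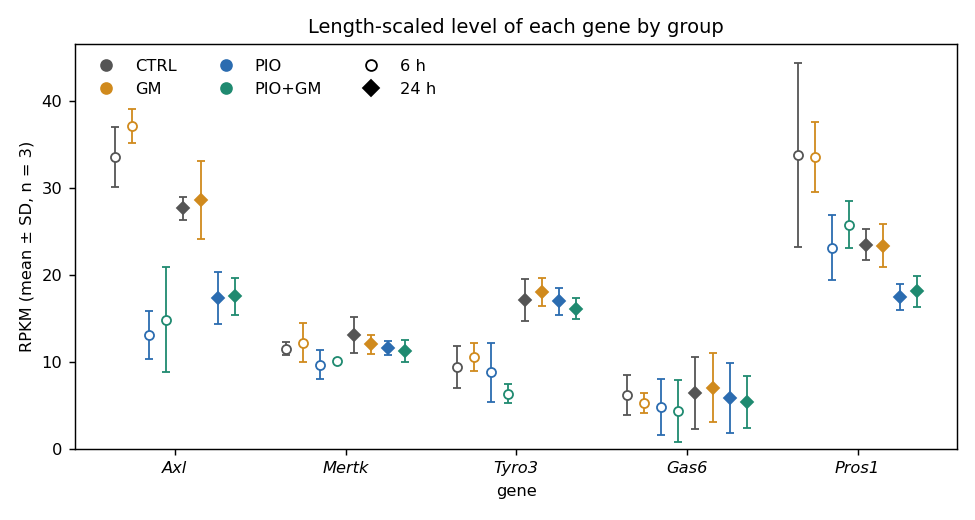
Length-scaled level (RPKM, y axis) of the 5 genes (x axis) in the 8 groups, as mean ± SD of 3 libraries. Open circles are 6 h and filled diamonds 24 h, and colours give the treatment. *Axl* reached 37.1 RPKM in GM at 6 h and 13.1 in PIO at 6 h, and *Gas6* stayed the lowest member in every group.

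*Axl* (Entrez 26362, GRCm38 chr7:25757273-25788705, minus strand) encodes a receptor bound by Gas6. It was lower with pioglitazone in PIO+GM against GM at 6 h and in both such comparisons at 24 h. In PIO against CTRL at 6 h it was lower too, but *Axl* was chosen on that value. In CPM (counts per 1000000 counts of the library, scaled with TMM factors) the CTRL libraries at 6 h had 180, 181 and 150, and the PIO libraries 69.8, 51.3 and 78.4. These are the libraries from which *Axl* was chosen. The mean was 60.9% lower in PIO, with a fitted log2 fold change of -1.35 ± 0.21 (SE), and the 2 groups did not overlap. Over all genes 0.337% were called in that comparison, and nothing is read from it for the members. The other fitted log2 fold changes there were -0.55 for *Pros1*, -0.37 for *Gas6*, -0.25 for *Mertk* and -0.09 for *Tyro3*.

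The comparison of PIO+GM with GM at 6 h used 6 other libraries and asked whether pioglitazone acted in the presence of gentamicin. *Axl* had 177, 196 and 192 CPM in GM and 111, 60.5 and 54.9 CPM in PIO+GM. Every PIO+GM library was below every GM library, and the first PIO+GM replicate was nearest to them. *Axl* fell by 1.32 on the log2 scale (SE 0.21, 95% interval -1.76 to -0.88, edgeR quasi-likelihood adjusted p = 0.00721). The mean in PIO+GM was 0.400 of that in GM. It was the only member called of 5 (1 of 5), where 1.32% of the 16317 genes were called. The call was made in the fit that estimates the spread over all 24 libraries. With the 12 libraries of 6 h alone the fold change was -1.33 and the adjusted p was 0.200, with the 6 libraries of both groups the adjusted p was 0.259, and no gene of the table was called in either fit. It was also lost without PIO+GM replicate 2 (-1.19, adjusted p = 0.0916) or replicate 3 (-1.14, adjusted p = 0.0646). Over all 16 alternatives the adjusted p ran from 1.33e-06 to 0.259 and the log2 fold change from -1.70 to -1.09.

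In the same comparison fold changes went with base composition across genes (Spearman -0.622 across genes, which are not independent). The longest *Axl* transcript has 54.19% GC, and with the GC trend removed *Axl* was at -1.09 (adjusted p = 0.000937).

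At 24 h the lower *Axl* level with pioglitazone was present with and without gentamicin. CTRL had 141, 147 and 133 CPM and PIO 76.7, 105 and 82.0, a mean 37.3% lower. GM had 144, 169 and 123 CPM and PIO+GM 92.6, 97.4 and 76.9, a mean 38.7% lower. Neither pair of groups overlapped, and *Axl* was lower in 3 of 3 same-numbered libraries in both. The fitted log2 fold change was -0.67 ± 0.21 in PIO against CTRL (edgeR adjusted p = 0.229) and -0.71 ± 0.21 in PIO+GM against GM (adjusted p = 0.293). Neither passed the threshold, and 0 of 5 members did, where 0.153% and 0.11% of genes were called. Of all genes 1621 and 1219 had an unadjusted p under 0.05, and DESeq2 called 162 and 112 genes and none of the members. With the GC trend removed *Axl* in PIO against CTRL was called (-0.67, adjusted p = 0.0383, range over its alternatives 0.0122 to 0.533).

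When the pioglitazone effect at 24 h was averaged over both gentamicin states, *Axl* fell by 0.69 on the log2 scale (SE 0.15, 95% interval -0.998 to -0.383, edgeR adjusted p = 0.0156). The 6 libraries with pioglitazone lay between 76.7 and 105 CPM with a median of 87.3, and the 6 without it between 123 and 169 with a median of 142. The 2 sets did not overlap, but the share of all genes that did so was not counted, and nothing is read from it. *Axl* was the only member called (1 of 5), where 2.79% of genes were called. Leaving out PIO replicate 1, PIO replicate 3 or PIO+GM replicate 3 gave adjusted p of 0.0517, 0.0516 and 0.0528, so the call lay close to the threshold. Over 21 alternatives the adjusted p ran from 0.000415 to 0.0528.

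The pioglitazone effect on *Axl* at 24 h differed by -0.03 on the log2 scale between explants with and without gentamicin (95% interval -0.64 to 0.58, edgeR adjusted p = 1.00). Between 6 and 24 h the PIO+GM to GM fold change moved by 0.61 (95% interval -0.00 to 1.23, unadjusted p = 0.0501, adjusted p = 0.843). In both of these tests 0 of 5 members and 0 genes, which is 0% of the table, were called by edgeR. An unadjusted p under 0.05 was reached by 197 and 663 genes, and DESeq2 called 0 and 1. A smaller effect at 24 h than at 6 h was thus not separated from the spread of the libraries.

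No member was called with gentamicin alone. *Axl* differed from CTRL by 0.15 on the log2 scale at 6 h (95% interval -0.28 to 0.58) and by 0.05 at 24 h (-0.38 to 0.48). At 6 h the 5 members lay between -0.24 (*Gas6*) and 0.16 (*Tyro3*), and at 24 h between -0.12 (*Mertk*) and 0.12 (*Gas6*). The edgeR test called 0 of 5 members at either time, where 0% and 0.0123% of genes were called, 243 and 272 genes had an unadjusted p under 0.05 and DESeq2 called 0 and 15 genes. The change of the gentamicin effect on *Axl* between the times was -0.10 (95% interval -0.71 to 0.51), again with 0 of 5 members and 0% of genes called, 125 genes under an unadjusted 0.05 and 0 called by DESeq2. The comparisons with CTRL at 6 h share the CTRL libraries with the one by which *Axl* was chosen.

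Ordered by mean level, *Axl* ran from GM at 6 h (188 CPM) through CTRL at 6 h (170), GM at 24 h (145) and CTRL at 24 h (140) to PIO+GM at 24 h (89.0), PIO at 24 h (88.0), PIO+GM at 6 h (75.4) and PIO at 6 h (66.5). Neighbouring groups overlapped everywhere except between CTRL at 24 h and PIO+GM at 24 h, where the order passed from explants without to explants with pioglitazone. CTRL and PIO at 6 h are the groups by which *Axl* was chosen, so nothing is read from their places in this order.

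**Figure D2:**
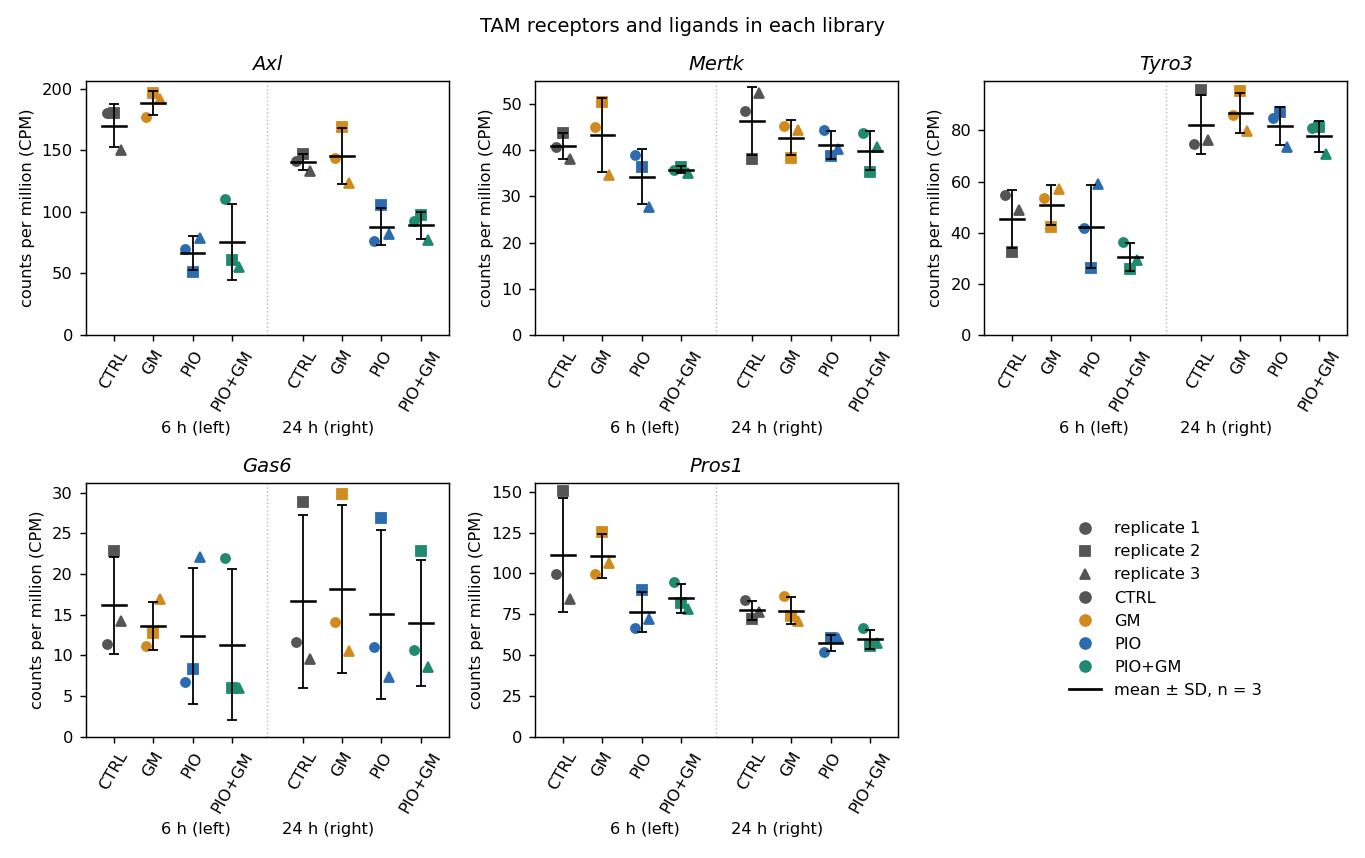
Level of each gene in CPM (y axis, linear from 0) in every library. The x axis gives the treatment, with 6 h on the left and 24 h on the right of each panel. Symbols give the replicate number and black bars the mean ± SD of 3 libraries. Leaving aside the CTRL and PIO libraries of 6 h, by which it was chosen, *Axl* lies between 54.9 and 111 CPM with pioglitazone and between 123 and 196 without. *Gas6* is highest in replicate 2 of each group at 24 h.

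Some fibroblast markers were lower with pioglitazone as well. At 24 h the summed level of 8 fibroblast markers lay between 3422 and 4291 CPM in the libraries with pioglitazone and between 5074 and 7184 in those without. In the average over gentamicin 4 of 8 of these markers were called lower, where 2.79% of all genes were called (median log2 fold change -0.76 against -0.00 over all genes). At 6 h the fibroblast sum lay between 3144 and 4351 CPM in PIO+GM and between 3648 and 5385 in GM. There 1 of 8 was called lower, where 1.32% of all genes were called. Sums of 12 macrophage markers overlapped at both times, with 75.9 to 90.1 CPM in PIO+GM and 60.8 to 136 in GM at 6 h. In the 24 h average the other 6 lists had negative medians too, with no marker called. Lower values were found for 8 of 8 endothelial markers (median -0.36), 10 of 10 hair cell markers (-0.35), 6 of 8 neuron markers (-0.30), 9 of 12 macrophage markers (-0.24), 6 of 8 Schwann cell markers (-0.20) and 7 of 8 supporting cell markers (-0.08). In PIO+GM against GM at 6 h, again with none called in these 6 lists, they were 8 of 8 for Schwann cells (median -0.44), 5 of 8 for endothelial cells (-0.36), 8 of 12 for macrophages (-0.24), 5 of 8 for supporting cells (-0.24), 7 of 8 for neurons (-0.19) and 5 of 10 for hair cells (-0.03), beside 5 of 8 for fibroblasts (-0.35) and a median of -0.02 over all genes. None of the markers in these lists was at 0. Over all 24 libraries *Axl* ran most like the fibroblast sum (Pearson r = 0.66) and then the endothelial sum (0.60), and these libraries share treatments and times. The part of any of these cells in the lower *Axl* level was not tested.

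*Mertk* (Entrez 17289, chr2:128698956-128802894, plus strand), the receptor by which macrophages engulf dying cells, varied little between treatments. Group means lay between 34.3 CPM (PIO at 6 h) and 46.3 CPM (CTRL at 24 h), and all neighbouring groups in the order overlapped. The pioglitazone values were -0.28 ± 0.15 in PIO+GM against GM at 6 h, -0.17 ± 0.15 in PIO against CTRL at 24 h and -0.10 ± 0.15 in PIO+GM against GM at 24 h, with edgeR adjusted p of 0.255, 0.777 and 0.953. The 95% interval of the 24 h average ran from -0.35 to 0.09, so a change as large as that of *Axl* lies outside it. An antisense gene (*Gm14011*) and a snoRNA gene (*Gm23172*) overlap *Mertk*, and the sources used here do not say whether counting used strand.

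*Tyro3* (Entrez 22174, chr2:119797733-119818104, plus strand), a receptor for both ligands, rose with culture time in each treatment. At 6 h the 12 libraries lay between 25.9 and 58.9 CPM and at 24 h between 70.8 and 95.8 CPM, with no overlap. The share of all genes without overlap between the times was not counted. Averaged over treatments the log2 change from 6 to 24 h was 0.98 ± 0.11 (edgeR adjusted p = 3.95e-07). The values were 0.86 in CTRL, 0.77 in GM, 0.95 in PIO and 1.35 in PIO+GM. With *Pros1* it made 2 of 5 members called, but 62.6% of all genes were called in that average, so a change with time was common in these explants. *Tyro3* was not called without CTRL at 6 h replicate 2 in the CTRL comparison (0.67, adjusted p = 0.0586) or without replicate 2 at 6 h (0.66, adjusted p = 0.0881) or at 24 h (0.70, adjusted p = 0.0588) in the GM comparison.

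In PIO+GM at 6 h *Tyro3* had 36.4, 25.9 and 29.2 CPM, and in GM 53.5, 42.1 and 56.9 CPM. The groups did not overlap, and the fitted log2 fold change was -0.74 ± 0.23 with an edgeR adjusted p of 0.0804. DESeq2 called it (adjusted p = 0.0295), as did the fit without PIO+GM replicate 1 (-0.88, adjusted p = 0.0214), and over all alternatives the adjusted p ran from 0.00983 to 0.326. The longest *Tyro3* transcript has 55.38% GC, and with the GC trend removed the fold change was -0.41. At 24 h the values were -0.01 ± 0.22 in PIO against CTRL and -0.16 ± 0.22 in PIO+GM against GM (adjusted p = 0.996 and 0.940). The difference of the PIO+GM to GM effect between the times was 0.57 (95% interval -0.09 to 1.23, adjusted p = 0.843). At 6 h every library of replicate 2 was below its group mean, by 0.22 to 0.61 on the log2 scale.

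*Pros1* (Entrez 19128, chr16:62854307-62929346, plus strand) encodes protein S, which is also an anticoagulant cofactor. The 6 libraries with pioglitazone at 24 h had 51.7, 60.2 and 60.6 CPM in PIO and 66.3, 55.3 and 57.4 CPM in PIO+GM. CTRL had 83.6, 72.3 and 76.2 CPM and GM 86.3, 73.9 and 70.7 CPM. All libraries with pioglitazone lay below all without. The share of all genes that separate this way over 6 against 6 libraries was not counted, so nothing is read from it. The fitted log2 fold change averaged over gentamicin was -0.40 ± 0.12 (95% interval -0.65 to -0.15) with an edgeR adjusted p of 0.0796, which missed the threshold. DESeq2 gave 0.0496 and the fit of the 12 libraries of 24 h gave 0.0121, and the range over all alternatives was 0.0121 to 0.186. In PIO against CTRL it was -0.43 ± 0.17 and in PIO+GM against GM -0.37 ± 0.17 (adjusted p = 0.382 and 0.658). At 6 h PIO+GM had 94.97, 81.6 and 78.2 CPM and GM 99.8, 125 and 107 CPM, again with no overlap, and the fold change was -0.38 ± 0.17 (adjusted p = 0.172). The longest *Pros1* transcript has 43.35% GC, and with the GC trend removed the fold change there was -0.59 (adjusted p = 0.105).

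*Axl* and *Pros1* were thus the members that lay lower, without overlap, in PIO than in CTRL at 24 h (2 of 5, where 10.6% of genes did) and in PIO+GM than in GM at 24 h (2 of 5, where 8.57% did). At 6 h *Axl*, *Tyro3* and *Pros1* did so in PIO+GM against GM (3 of 5, where 11.4% did).

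With culture time *Pros1* went the other way from *Tyro3*. It fell by 0.49 on the log2 scale from 6 to 24 h on average (SE 0.09, edgeR adjusted p = 5.59e-05), and by 0.53 in CTRL, 0.52 in GM and 0.51 in PIO+GM (adjusted p = 0.0264, 0.0304 and 0.0268). In PIO it was -0.41 with an adjusted p of 0.0783. Members called were 2 of 5 in CTRL, GM and PIO+GM, where 28%, 24.2% and 34.6% of genes were called, and 1 of 5 (*Tyro3*) in PIO, where 29% were. The CTRL value of *Pros1* depended on CTRL at 6 h replicate 2, which had 151 CPM against 99.4 and 84.1 in the other libraries of that group. Without it the change was -0.25 (adjusted p = 0.282). It was also lost without CTRL at 24 h replicate 2 (adjusted p = 0.0877) or 3 (0.0733). The GM call was lost without GM at 6 h replicate 2 (0.146) or GM at 24 h replicate 2 (0.0882) or 3 (0.103). The PIO+GM call was lost without PIO+GM at 6 h replicate 1 (0.0806) or 2 (0.0572) or PIO+GM at 24 h replicate 2 (0.0941) or 3 (0.0810), and with the GC trend removed (-0.34, adjusted p = 0.140). The log2 values of *Axl* with time were -0.28 in CTRL, -0.38 in GM, 0.40 in PIO and 0.24 in PIO+GM, none called, and averaged -0.00. These outcomes depended on the setting. With the GC trend removed *Axl* was called in GM (-0.45, adjusted p = 0.0201), and with the replicate block as well it was called in CTRL (-0.34, adjusted p = 0.0491) and in GM (-0.46, adjusted p = 0.0130). In PIO+GM it was called without PIO+GM at 6 h replicate 1 (0.61, adjusted p = 0.0105) and was -0.00 with the GC trend removed. *Mertk* averaged 0.15 (adjusted p = 0.101) and was called with the GC trend removed (0.16, adjusted p = 0.0442) and without CTRL at 24 h replicate 2 (0.18, adjusted p = 0.0402). *Gas6* averaged 0.26 (adjusted p = 0.474). These comparisons use the CTRL and PIO libraries of 6 h by which *Axl* was chosen.

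Markers of nerve and glia fell with time as well. Of 8 Schwann cell markers 6 were called lower and none higher at 24 h (median log2 change -1.33), and of 8 neuron markers 6 were lower and none higher (median -1.09), against a median of 0.02 over all genes, of which 62.6% were called (5212 higher and 5008 lower of 16317). The summed Schwann cell level lay between 384 and 2822 CPM at 6 h and between 358 and 929 CPM at 24 h, with no marker at 0. Supporting cell markers had 5 of 8 called higher and none lower (median 0.47), macrophage markers 5 of 12 higher and 1 lower (0.45), hair cell markers 4 of 10 higher and 2 lower (0.06), fibroblast markers 3 of 8 higher and 1 lower (0.22) and endothelial markers 1 of 8 in each direction (0.27). Over all 24 libraries, which share treatments and times, *Pros1* ran most like the Schwann cell sum (Pearson r = 0.81) and then the neuron sum (0.65), and *Tyro3* ran against both (-0.57 and -0.55) and with the macrophage sum (0.57). The part of these cells in the values of *Pros1* or *Tyro3* was not tested.

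*Gas6* (Entrez 14456, chr8:13465374-13494490, minus strand), the ligand of all TAM receptors, varied more between replicates than between treatments. Its pooled SD within groups was 0.80 on the log2 scale, higher than that of 95.9% of the genes tested, and the standard error of its fold changes was about 0.6. At 24 h replicate 2 had 28.8 CPM in CTRL, 29.8 in GM, 26.8 in PIO and 22.8 in PIO+GM. The other 8 libraries of 24 h lay between 7.29 and 14.1 CPM. At 6 h no number stood apart in this way, and the highest library was replicate 2 in CTRL (22.8 CPM), replicate 3 in GM (16.9) and PIO (22.0) and replicate 1 in PIO+GM (22.0).

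The fitted pioglitazone values of *Gas6* were -0.26 ± 0.62 in PIO+GM against GM at 6 h, -0.15 ± 0.61 in PIO against CTRL at 24 h and -0.38 ± 0.61 in PIO+GM against GM at 24 h (edgeR adjusted p = 0.819, 0.968 and 0.953). The 95% interval of the 24 h average ran from -1.16 to 0.63, in a fit that does not pair libraries by number. At 24 h *Gas6* was lower in 3 of 3 same-numbered libraries in both comparisons, with log2 differences of -0.08, -0.10 and -0.38 in PIO against CTRL and of -0.40, -0.39 and -0.30 in PIO+GM against GM. At 6 h the 3 differences in PIO+GM against GM were 0.98, -1.09 and -1.49. All neighbouring groups overlapped in the order of means, from GM at 24 h (18.1 CPM) to PIO+GM at 6 h (11.3 CPM). Because *Tmem255b* overlaps *Gas6* on the opposite strand and strand use in counting was not stated, its counts may include reads of that gene.

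Some marker lists differed between replicate 2, where *Gas6* was highest, and the other libraries of 24 h. The macrophage sum was 174 to 253 CPM in replicate 2 at 24 h, against 108 to 126 in replicate 1 and 84.1 to 137 in replicate 3, the endothelial sum was 331 to 482 CPM against 277 to 303 and 227 to 336, and the supporting cell sum was 2313 to 2785 CPM against 3830 to 5001 and 3245 to 5233. The hair cell sum was 570 to 759 CPM in replicate 2 against 697 to 970 and 773 to 1014, and the neuron sum was 89.4 to 230 CPM against 45.4 to 96.8 and 34.0 to 89.5. Replicate 2 did not stand apart in the fibroblast sum (3732 to 7184 CPM against 3550 to 6408 and 3422 to 5298). The same held for the Schwann cell sum (372 to 668 CPM against 358 to 929 and 368 to 597). Over all 24 libraries, which share treatments and times, *Gas6* ran most like the endothelial sum (Pearson r = 0.77) and *Mertk* most like the hair cell sum (0.55). *Mertk* was at 35.3 to 38.8 CPM in replicate 2 at 24 h, below the 40.2 to 52.4 of the other libraries of 24 h. The part of any of these cells in either level was not tested.

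**Figure D3:**
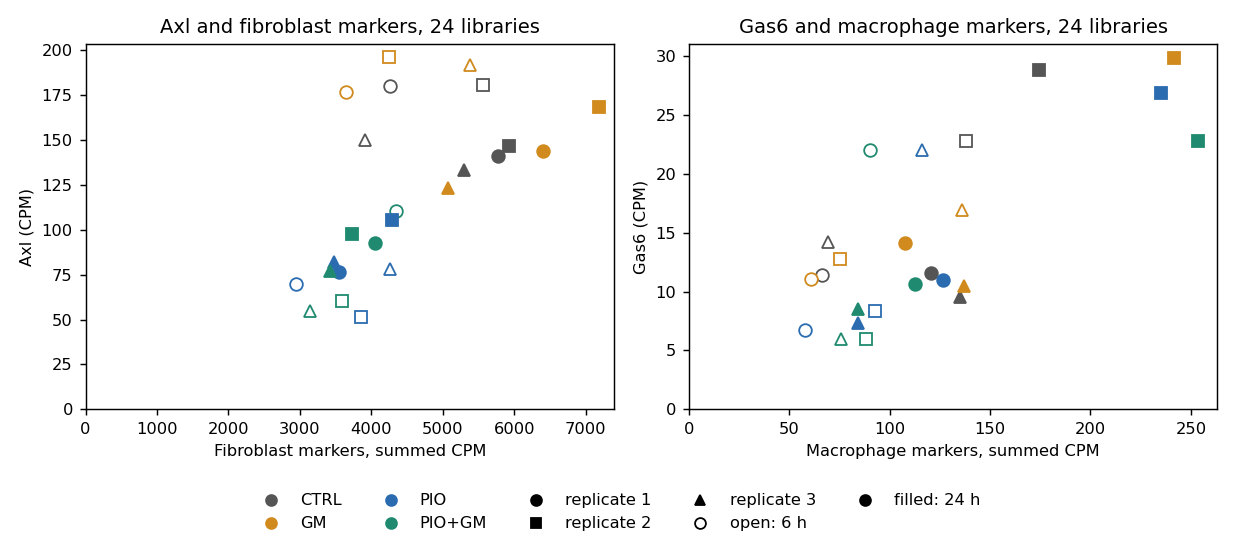
Left, *Axl* (CPM, y axis) against the summed CPM of 8 fibroblast markers (x axis). Right, *Gas6* against the summed CPM of 12 macrophage markers. Each point is 1 of 24 libraries, coloured by treatment, with symbols for the replicate number, open at 6 h and filled at 24 h. At 24 h libraries with pioglitazone have fibroblast sums of 3422 to 4291 CPM, below the 5074 to 7184 of the others, and replicate 2 has the highest macrophage sums (174 to 253 CPM) and the highest *Gas6*.

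Members were read beside genes of the same pathway. Of 17 genes for TAM signalling and for ligand or receptor processing, edgeR called 0 in any pioglitazone or gentamicin comparison other than the one by which *Axl* was chosen, where 0% to 2.79% of all genes were called, so nothing is read from the 0. In PIO+GM against GM at 6 h 11 of 17 were lower, with a median log2 fold change of -0.12 against -0.02 over all genes. The lowest p values were those of *Akt1*, a kinase downstream of the receptors (-0.66 ± 0.17, edgeR adjusted p = 0.0576), and *Lgals3*, a galectin that binds Mertk (-1.28 ± 0.38, adjusted p = 0.0732). DESeq2 called both. Over its alternatives *Akt1* ran from -0.94 to -0.18 (adjusted p 0.00198 to 0.319), with the values nearest 0 where the GC trend was removed, and *Lgals3* from -1.54 to -0.98 (0.0188 to 0.319). In the 24 h average 12 of 17 were lower, with a median of -0.10, and *Lgals3* was at -0.68 ± 0.27 (adjusted p = 0.185).

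With time 5 of these 17 genes rose and 4 fell, where 62.6% of all genes were called. *Vkorc1* (0.88 ± 0.08) and *Ggcx* (0.67 ± 0.08), the vitamin K reductase and the carboxylase that prepare Gas6 and protein S, rose, while the related reductase *Vkorc1l1* fell by 0.47. Of 2 tubby proteins that have been described as bridging molecules, *Tulp1* rose (1.49 ± 0.23) and *Tub* fell by 1.20. *Socs3*, a cytokine signalling inhibitor, fell by 0.92. All had edgeR adjusted p of 0.000334 or less.

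Among 32 tested genes of efferocytosis, edgeR called 0 in PIO+GM against GM at either time, where 1.32% and 0.11% of all genes were called. In these comparisons 24 of 32 were lower at each time (medians -0.36 at 6 h and -0.11 at 24 h, against -0.02 and 0.00 over all genes). Fold changes at 6 h went with base composition across genes, and the list medians were taken without removing that trend. *Megf10*, an engulfment receptor, was at -0.58 ± 0.17 (adjusted p = 0.0672) in the 24 h average and was called by DESeq2 (0.0273, range over its alternatives 0.0126 to 0.161). With time 11 of 32 rose and 13 fell, beside the same 62.6% of all genes called. The phosphatidylserine bridge *Mfge8* rose (0.95 ± 0.12), as did the inhibitory receptor *Sirpa* (0.88 ± 0.09), and the Mfge8 receptor subunit *Itgav* fell by 0.83.

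Of 14 tested genes listed for PPAR-gamma and LXR, a minority passed the test with pioglitazone. The list holds the genes of these receptors and of RXR beside target genes, so its counts are not shares of known responders. *Cpt1a*, the carnitine transferase that lets fatty acids into mitochondria, rose by 0.77 ± 0.12 in PIO+GM against GM at 6 h (edgeR adjusted p = 0.00721), with *Pdk4* (1.56 ± 0.32, adjusted p = 0.0330). These were 2 of 14, where 1.32% of all genes were called. Of the list 11 of 14 were lower and 3 higher, with a median of -0.35 against -0.02 over all genes. In the 24 h average, where 2.79% of all genes were called, 4 of 14 rose and 0 fell: *Angptl4* (3.01 ± 0.30), *Pdk4* (1.46 ± 0.23), *Cpt1a* (1.09 ± 0.08) and *Abca1*, a cholesterol exporter (0.82 ± 0.15), with a median of 0.22. The *Pdk4* call at 6 h was lost without each of GM replicates 1, 2 and 3 and PIO+GM replicates 2 and 3 (adjusted p 0.0563 to 0.190), and the *Cpt1a* call without GM replicate 1 (0.0655). Both were lost with 12 or 6 libraries, where no gene was called. With time 10 of 14 rose and 2 fell on average, where 62.6% of all genes were called. By treatment 1 of 14 was called in CTRL, 0 in GM, 8 in PIO and 9 in PIO+GM, where 28%, 24.2%, 29% and 34.6% of all genes were, and edgeR called 0 of 14 (and 0% of all genes) for the difference of that change between PIO+GM and GM.

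Of 16 tested genes linked to YAP and AP-1, whose TEAD partners read the letters found in the *Axl* promoter, edgeR called 0 in PIO+GM against GM at either time or in the 24 h average, where 1.32%, 0.11% and 2.79% of all genes were called. In PIO+GM against GM 12 of 16 were lower at 6 h (median -0.24 against -0.02 over all genes) and 14 of 16 at 24 h (median -0.12 against 0.00). *Ajuba*, a LIM protein of the Hippo pathway, was at -0.53 ± 0.16 (edgeR adjusted p = 0.0747) in that comparison at 6 h. *Wwtr1*, the YAP paralog TAZ, was at -0.19 ± 0.11 (edgeR adjusted p = 0.372) in the 24 h average. DESeq2 (adjusted p = 0.0237) and the fit without PIO+GM replicate 1 called *Ajuba* at 6 h, and the latter also called *Lats2*, a Hippo kinase (-0.63, adjusted p = 0.0233). Over its alternatives *Ajuba* ran from -0.69 to -0.08 (adjusted p 0.00980 to 0.798), nearest 0 with the GC trend removed. With time 8 of 16 fell and 1 rose, where 62.6% of all genes were called. *Fosl1*, an AP-1 subunit, fell by 4.65 on the log2 scale.

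**Figure D4:**
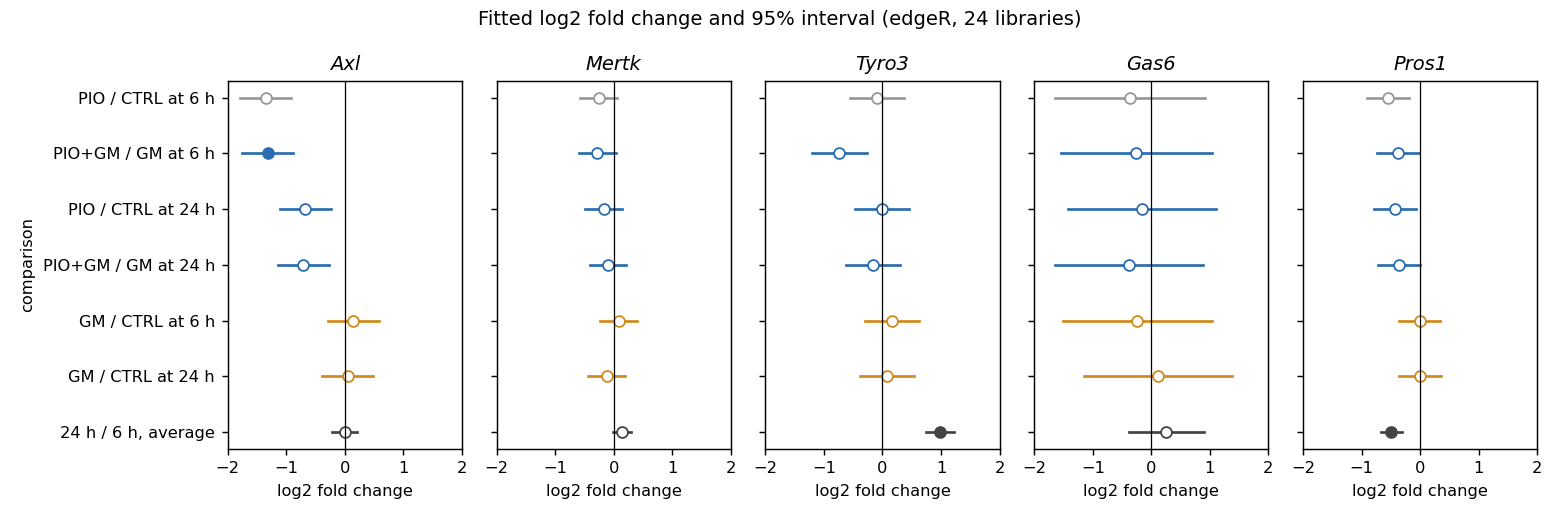
Fitted log2 fold change (x axis) of each gene in 7 comparisons (y axis), with the 95% interval as a line. Filled points have an edgeR adjusted p under 0.05, and grey marks the comparison by which *Axl* was chosen, which carries no test. *Axl* lies at -1.32 in PIO+GM against GM at 6 h and *Tyro3* at 0.98 in the average of 24 h against 6 h.

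The genes whose levels ran most like those of the members were found by Pearson r of log2 CPM over 24 libraries, as a description with no test, since the libraries share treatments, times and base composition trends. For *Axl* they were *Flna*, a filamin that crosslinks actin (r = 0.94), *Rhoc* (0.93), *Mmp28* (0.93), *Rtkn* (0.92) and *Ccdc9b* (0.92). Over the means of the 8 groups 3 of these 5 stayed among the first 5. For *Mertk* they were *Nav3* (0.87), *Lima1* (0.81) and *Mtus1* (0.80), and for *Tyro3* *Dyrk1b*, *Cpt1c* and *Tle2* (each 0.98). For *Gas6* they included *Cyth4* (0.92) and *Cacna1c* (0.90), and for *Pros1* *Rab7b* (0.95), *Akr1b8* (0.93) and *Ahnak* (0.93). For these other 4 members none of the 3 genes stayed among the first 3 over group means. Between members, *Axl* ran most like *Pros1* (0.56) and *Gas6* (0.54), and *Tyro3* and *Pros1* ran in opposite directions (-0.55).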

How the data were processed

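RNA of OC explants was sequenced from a TruSeq stranded library on a NextSeq 500. Per the study's methods, the authors aligned reads to mm10 with STAR, counted them per Entrez gene with QuasR and deposited whole-number read counts with a gene length; their own filters and tests were not used here. Whether counting used strand was not given in the sources used here. Symbols were matched for 24381 of 24454 identifiers. Counts were tested with edgeR 4.0.16 (TMM, filterByExpr, quasi-likelihood F test, 1 mean per group over 24 libraries, TMM factors 0.961 to 1.04) and adjusted with Benjamini-Hochberg over 16317 genes, with calls at 0.05. CPM and RPKM were computed from the counts, log2 CPM with a prior count of 2. Totals of 7211357 to 15548856 make 3 counts worth 0.193 to 0.416 CPM, for counting error only. With 3 libraries against 3 an exact permutation test cannot go below 0.1, so it was not used.

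The members and all lists were chosen with earlier results of these data known. The rule for named genes was the 5 members, the list genes past the threshold in a comparison (at most 6 a list, otherwise the 2 with the lowest p) and the genes most like each member; examples of these are given, and 2 genes that the rule names are not reported here. The groups were those of the labels. The alternatives were DESeq2 1.42.0, median-of-ratios or no scaling factors, no filter, at least 10 counts in every library, the replicate block, fits of 12 or 6 libraries, removal of a GC trend (GC known for 94.3% of genes) and each library left out. The edgeR script was tested on simulated data. No 2 libraries of a group agreed within sampling noise (chi-square per gene 10.7 to 84.9). Gene positions are from GENCODE vM21 on GRCm38, promoters from RefSeq on GRCm38.p6. Marker and pathway lists were written from general knowledge.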

Additional observations from a re-analysis of the deposited data

How the results depend on the processing

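Of 424 tested member values recomputed under settings other than leaving out a library, 392 kept their direction and their side of the threshold, 15 became calls, 4 were lost and 13 changed sign. When 1 library was left out, 371 of 426 were kept, 18 calls were lost, 3 gained and 34 changed sign. The untested values of PIO against CTRL at 6 h moved by less than the replicate SD in 50 of 50 and 28 of 30 recomputations.

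The number of members called moved as follows. In PIO+GM against GM at 6 h it was 1, then 2 with DESeq2, with the replicate block and with both block and GC, and 0 with 12 or 6 libraries. In PIO against CTRL at 24 h it was 0, then 1 with the GC trend removed, with or without the block. In PIO+GM against GM at 24 h it was 0, then 1 with block and GC. In the 24 h average it was 1, then 2 with DESeq2, the replicate block, 12 libraries, or block and GC. In 24 h against 6 h it was 2 and became 3 with the GC trend removed, with or without the block, on average and in GM, and 3 with both in CTRL. In PIO+GM it was 2, then 1 with the GC trend removed, with or without the block. Leaving out 1 library gave 0 to 2 members in PIO+GM against GM at 6 h and 0 to 1 in the 24 h average, and 2 to 3 in 24 h against 6 h on average and 0 to 2, 0 to 2 and 1 to 2 in CTRL, GM and PIO+GM.

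Some values changed sign, and ranges in parentheses have 1 library left out. In PIO against CTRL at 24 h *Tyro3* was 0.0027 with median-of-ratios factors, 0.0025 without factors, 0.012 without a filter, 0.013 with at least 10 counts and 0.0027 with DESeq2 (-0.073 to 0.12). *Gas6* in PIO+GM against GM at 6 h was 0.024 with the GC trend removed and 0.094 with the block too (-1.19 to 0.053), and in 24 h against 6 h on average -0.055 with block and GC. *Axl* in 24 h against 6 h was 0.019 on average without a filter (-0.050 to 0.090) and in PIO+GM -0.0033 with the GC trend removed and -0.0027 with the block too. Its difference between gentamicin states at 24 h was 0.022 and 0.030 under those settings (-0.14 to 0.12). With 1 library left out *Axl* in GM against CTRL at 24 h ran from -0.074 to 0.16 and its change with time from -0.22 to 0.0044. *Gas6* ran from -0.43 to 0.090 in GM against CTRL at 6 h, from -0.45 to 0.79 at 24 h, from -0.87 to 0.52 in PIO against CTRL at 24 h, from -0.92 to 0.19 in PIO+GM against GM at 24 h and from -0.62 to 0.069 in the average. *Tyro3* in GM against CTRL at 6 h ran from -0.026 to 0.33. The cause was not tested.

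Counts over all genes moved more than the members. PIO+GM against GM at 6 h had 216 genes in the main fit, 1330 with DESeq2, 350 with at least 10 counts, 75 without a filter, 123 with the GC trend removed, 0 with 12 or 6 libraries and 4 to 4040 with 1 library left out. PIO against CTRL at 6 h had 55, then 383, 95, 22, 201, 0 and 6 to 120. The 24 h average had 455, then 970 with DESeq2, 279 without a filter, 1073 with the GC trend removed, 1373 with 12 libraries and 182 to 387 with 1 left out. PIO against CTRL at 24 h had 25, then 162, 16, 94, 76 and 2 to 51, with 8 in the 6 libraries. PIO+GM against GM at 24 h had 18, then 112, 13, 45, 40 and 1 to 8, with 3. GM against CTRL at 24 h had 2, then 15 with DESeq2, 6 with 12 libraries, 1 with the GC trend removed, 0 with 6 libraries or at least 10 counts, and 1 to 2. With 1 library left out, 24 h against 6 h had 2665 to 4274 genes in CTRL (main 4564), 2149 to 3732 in GM (3954), 2658 to 6055 in PIO (4731) and 3453 to 6103 in PIO+GM (5646).

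The labels do not say whether same-numbered libraries were paired, and the main fit does not pair them. Their deviations from the group means correlated by over 0.1 in 9 of 18 pairs at 6 h and in 15 of 18 at 24 h. The mean correlation was 0.11 for same-numbered and -0.05 for other-numbered libraries at 6 h, and 0.38 and -0.18 at 24 h. At each time 8 of 12 libraries were closest to their own number. Libraries of 24 h thus shared differences by replicate number, which the main fit counts as spread. Fitting the replicate number as a block, the genes called were 371 in PIO against CTRL at 6 h, 1990 in PIO+GM against GM at 6 h, 241 and 98 at 24 h, 12 in GM against CTRL at 24 h and 1191 in the 24 h average, and *Tyro3* in PIO+GM against GM at 6 h (adjusted p = 0.00983) and *Pros1* in the 24 h average (0.0261) were called. *Gas6* in that average was -0.27 with an adjusted p of 0.665. With block and GC the counts were 833, 726, 556, 205, 12 and 2203. Depth did not limit *Axl*, at 407 counts or more, but *Gas6* fell to 44.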
